A study of Mus musculus with 18 samples.

Results

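Immediate early genes are the first genes that a cell transcribes after a stimulus, and 10 of them were examined in the embryonic cortex: the AP-1 genes *Fos*, *Fosb*, *Jun* and *Junb*, the zinc finger genes *Egr1* and *Egr2*, the neuronal genes *Arc* and *Npas4*, and *Ier2* and *Nr4a1*. The members were found by their gene symbols. All 10 are among the 55153 genes of the RNA-seq count table, and 8 are among the 14348 genes with complete counts in Ribo-seq, the sequencing of mRNA fragments protected by ribosomes. Cerebral cortices were taken at embryonic day 15.5 (E15.5) from mice labelled C57BL/6 of 3 genotypes: wild type (Ctrl), *Mettl3* f/f with *Emx1*-Cre (*M*-cKO) and *Fto* f/f with *Emx1*-Cre (*F*-cKO). Each genotype had 3 RNA-seq and 3 Ribo-seq libraries, 18 libraries in all. The study's methods give a mixed C57BL/6 and 129 background for the floxed lines. *Emx1*-Cre acts in the dorsal forebrain lineage, so interneurons, microglia, vessels and meninges in the dissected tissue keep their alleles. The labels call the libraries biological repeats and do not tie them to litters, and the methods can be read as taking 3 Ribo-seq cortices from a single litter, so *P* values measure the spread between these libraries only. In this bulk tissue, fewer cells of a type and less RNA per cell cannot be told apart.

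Transcription of immediate early genes needs no new protein. Calcium entry and MAP kinase signaling act on transcription factors that are already present, such as CREB, SRF with its ternary complex partners, and MEF2, and the mRNA is made and degraded quickly. Fos and Jun proteins pair to form the AP-1 transcription factor. In neurons these genes report recent activity, and in progenitors they respond to growth factors and to stress, including the handling of tissue.

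Sequencing depth was similar among the RNA-seq libraries (18504094 to 22592406 counted reads) and varied 3.27-fold in Ribo-seq (10973699 to 35853227 counted footprints). *Fto* was lower in *F*-cKO, at 2.43 to 7.56 FPKM against 8.37 to 11.2 FPKM in Ctrl, and at 2.11 to 4.04 RPKM against 17.6 to 25.9 RPKM in Ribo-seq. RNA-seq *F*-cKO replicate 2 stood apart, with 7.56 FPKM of *Fto* against 3.26 and 2.43 FPKM in replicates 1 and 3. FPKM and RPKM are read numbers scaled by the length of the gene and by the mapped reads of the library. *Mettl3* footprints were at 6.02 to 6.78 RPKM in *M*-cKO against 9.16 to 9.93 RPKM in Ctrl, whereas *Mettl3* RNA was higher in *M*-cKO (7.82 to 8.61 against 5.07 to 6.43 FPKM). These counts cover the whole gene, including exons outside the deletion, so the RNA level of *Mettl3* does not check the knockout. Markers of cortical excitatory neurons and of dorsal progenitors were present in all 18 libraries.

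The 10 genes covered a wide range of RNA levels in Ctrl. *Jun* was the most abundant at 22.7 ± 0.446 FPKM (SD, n = 3), followed by *Ier2*, a growth factor induced nuclear protein, at 13.1 ± 0.50 FPKM, *Junb* at 3.33 ± 0.246 FPKM and *Nr4a1*, an orphan nuclear receptor, at 2.38 ± 0.182 FPKM. The ranges of neighbours did not overlap among the first 4 of this order. Next came *Egr1* (1.94 ± 1.63 FPKM), *Fos* (1.60 ± 1.53 FPKM), *Arc* (0.912 ± 0.194 FPKM) and *Npas4* (0.823 ± 0.175 FPKM), and from *Nr4a1* to *Npas4* each gene's range overlapped that of the next. *Fosb* was lower still at 0.143 ± 0.158 FPKM. *Egr2*, the zinc finger factor of the developing hindbrain and of myelinating Schwann cells, had 0 reads in all 9 RNA-seq libraries, which allows up to 0.162 CPM (counts scaled to library size) in the shallowest library. Intervals and floors of this kind cover counting error only. The footprints of *Jun* (22.3 ± 2.50 RPKM), *Ier2* (10.8 ± 1.52 RPKM) and *Junb* (2.91 ± 0.338 RPKM) in Ctrl kept the same order as their RNA, with no overlap between neighbours.

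**Figure D1:**
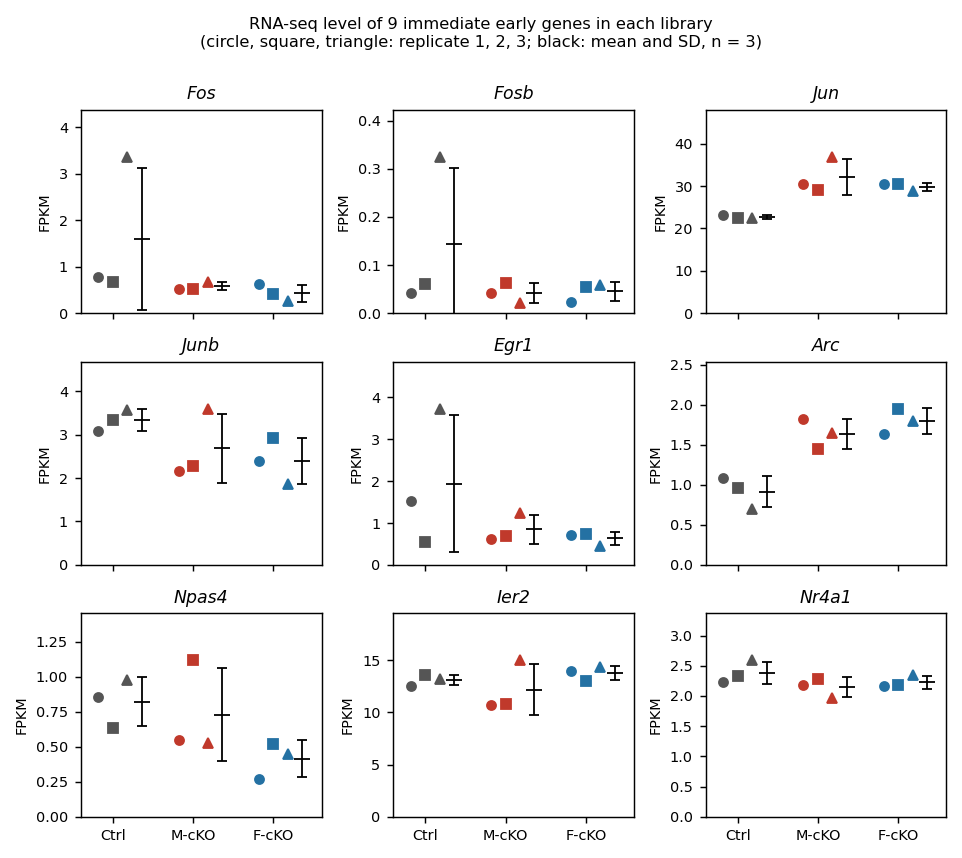
RNA-seq level (FPKM) of the 9 immediate early genes with any reads, one panel per gene, with Ctrl, *M*-cKO and *F*-cKO on the horizontal axis. Circle, square and triangle are replicates 1, 2 and 3, and black marks give the mean and SD (n = 3, with the bar of *Fosb* in Ctrl ending at 0). *Fos* reached 3.36 FPKM in Ctrl replicate 3 and at most 0.778 FPKM in the other libraries, and all knockout libraries lay above all Ctrl libraries for *Jun* and *Arc*.

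RefSeq promoter sequences (GRCm38.p6, the patched form of the mm10 build that the submitters name) were searched for 7 members. Both strands were read over the 250 bases before the start site. *Egr1* was not searched, and no sequence was at hand for *Arc* and *Ier2*. The upstream sequences of 3 AP-1 genes, whose proteins pair with each other, are shown beside the values that follow. Capitals mark the CRE half-site TGACG, the core bound by CREB, and the TATA motif TATAAA. They lie at chr12:85473640-85473889 on the plus strand (*Fos*), chr4:95052223-95052472 on the minus strand (*Jun*) and chr8:84978749-84978998 on the minus strand (*Junb*), each written 5′ to 3′.
Fos: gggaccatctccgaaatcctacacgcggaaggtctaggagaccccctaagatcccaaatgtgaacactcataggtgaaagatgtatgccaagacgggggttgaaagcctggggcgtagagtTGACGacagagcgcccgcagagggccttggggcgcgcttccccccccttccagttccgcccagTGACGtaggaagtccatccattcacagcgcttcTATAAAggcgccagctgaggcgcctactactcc
Jun: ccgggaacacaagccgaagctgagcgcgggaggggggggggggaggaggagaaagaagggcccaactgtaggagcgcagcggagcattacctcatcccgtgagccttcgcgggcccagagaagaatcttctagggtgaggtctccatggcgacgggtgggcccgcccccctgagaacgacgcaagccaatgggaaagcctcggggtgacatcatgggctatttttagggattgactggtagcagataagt
Junb: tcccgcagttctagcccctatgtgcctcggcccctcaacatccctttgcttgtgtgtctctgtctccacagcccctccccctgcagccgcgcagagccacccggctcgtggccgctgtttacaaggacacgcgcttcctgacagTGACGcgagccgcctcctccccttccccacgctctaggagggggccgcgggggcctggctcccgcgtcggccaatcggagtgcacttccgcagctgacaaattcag
*Fos* holds TGACG at 129 to 125 and at 66 to 62 bases before its start and TATAAA at 33 to 28 bases, and *Junb* holds TGACG at 106 to 102 bases. No letters of *Jun* matched a motif searched. TGACG was found in 17.8% and TATAAA in 12.4% of the 32851 RefSeq promoter windows of this length. The full CRE TGACGTCA, which contains TGACG on both strands, the AP-1 motif TGANTCA and the CArG box bound by SRF were searched too. They were found in 1.55%, 6.75% and 1.47% of windows, and not in these windows of *Fos*, *Jun* or *Junb*. Sequence further than 250 bases upstream was not searched, so an element there would not be seen. Among the other members searched, TGACG was found once in *Fosb*, at 2 positions in *Npas4* and at 4 in *Nr4a1*. It was also found, on both strands, upstream of start sites 3, 4 and 5 of *Egr2*. *Egr2* held a CArG box upstream of 4 of its 5 annotated start sites, and no motif upstream of the first. The windows of start sites 3, 4 and 5 overlap and hold the same matches. Such matches describe letters, and no test set them against the expression values.

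In the *M*-cKO cortex, *Jun* and *Arc* RNA rose, and no member was called lower, although 6 of the 8 tested had a negative fold change. Of the 8 members that passed the filter on low counts, 2 were higher at an adjusted *P* below 0.05 (edgeR quasi-likelihood test, Benjamini-Hochberg over all genes), where 15.5% of all 16968 genes tested were higher, and 0 were lower, where 14.1% were. DESeq2 called the same number in each direction, and 4 of the 8 members had an unadjusted *P* below 0.05, as did 40.6% of all genes. The median log2 fold change was -0.17 over the 8 members and -0.01 over all genes tested. *Fosb* and *Egr2* did not pass the filter on low counts. Without the filter *Fosb*, with 38 of its reads in 1 Ctrl library, was called lower in *M*-cKO (-1.68, adjusted *P* = 0.00324) and in *F*-cKO (-1.58, adjusted *P* = 0.0126).

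*Jun*, the core partner of AP-1 dimers, was at 23.2, 22.4 and 22.5 FPKM in Ctrl replicates 1, 2 and 3 and at 30.5, 29.0 and 36.9 FPKM in *M*-cKO. All *M*-cKO libraries were above all Ctrl libraries, as for 24.4% of all genes. The log2 fold change was 0.49 ± 0.08 (SE), or 1.41-fold, with an edgeR quasi-likelihood adjusted *P* of 0.00154 after Benjamini-Hochberg correction. *Arc*, which encodes a synaptic protein that assembles into capsid-like particles, was at 1.08, 0.956 and 0.699 FPKM in Ctrl and at 1.82, 1.44 and 1.64 FPKM in *M*-cKO, again without overlap. This is 0.83 ± 0.20 on the log2 scale, or 1.77-fold, on 40 to 126 reads per library (edgeR, Benjamini-Hochberg adjusted *P* = 0.00992). Both genes stayed past the threshold with each library left out in turn.

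*Fos* and *Egr1* gave the opposite picture, and their values depended on which Ctrl libraries were used. *Fos* was at 0.778 and 0.662 FPKM in Ctrl replicates 1 and 2 and at 3.36 FPKM in Ctrl replicate 3, against 0.524, 0.526 and 0.673 FPKM in *M*-cKO. In reads these are 41, 33 and 148 in Ctrl and 28, 25 and 35 in *M*-cKO. *Egr1*, a zinc finger factor induced by growth factors and synaptic input, was at 1.53, 0.547 and 3.73 FPKM in Ctrl and at 0.609, 0.685 and 1.25 FPKM in *M*-cKO. The groups overlapped for both genes. The log2 fold changes of -1.46 ± 0.54 for *Fos* and -1.19 ± 0.52 for *Egr1* missed the threshold (edgeR, Benjamini-Hochberg adjusted *P* = 0.0629 and 0.112). Without Ctrl replicate 3 they shrank to -0.32 ± 0.28 and -0.30 ± 0.40 (adjusted *P* = 0.465 and 0.664). Without Ctrl replicate 2, in contrast, both were called lower (-1.83 and -1.63, adjusted *P* = 0.0131 and 0.00564), and without Ctrl replicate 1 *Fos* was called (-1.80, adjusted *P* = 0.0362). Both were also called when no filter on low counts was applied (adjusted *P* = 4.75e-07 and 1.31e-08).

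Ctrl replicate 3 stood apart from the other RNA-seq libraries in *Fos*, *Fosb* and *Egr1*. *Fosb*, a close paralog of *Fos*, had 38 reads in this library, 6 and 8 reads in the other Ctrl libraries and 3 to 8 reads in each knockout library. Among 16968 genes, *Fos* ranked 1 and *Egr1* ranked 4 in the log2 difference between Ctrl replicate 3 and the next highest of the 9 libraries (2.06 and 1.27), a difference above 1 in 7 genes. *Jun*, *Junb*, *Ier2* and *Nr4a1* were much closer to the other Ctrl libraries. Their levels in Ctrl replicate 3 were 0.985, 1.11, 1.01 and 1.13 times the mean of the other 2 Ctrl libraries, compared with 4.67 times for *Fos*, 6.29 times for *Fosb* and 3.59 times for *Egr1*. *Npas4* was at 1.31 times that mean. *Junb* was at 8.34 CPM in Ctrl replicate 3 and at 8.31 CPM in *M*-cKO replicate 3, and in FPKM this order was reversed (3.58 and 3.60 FPKM). *Nr4a1* was nevertheless at its highest of the 9 RNA-seq libraries in Ctrl replicate 3 (9.21 CPM). *Arc* was lowest in this library, at 0.686 times the mean of the other 2. In Ribo-seq, where the library with the same number is not known to come from the same tissue, Ctrl replicate 3 also had the highest footprint level of the 3 Ctrl libraries for *Fos* (0.786, 0.371 and 1.10 RPKM), *Fosb* (0.124, 0.0890 and 0.205 RPKM) and *Egr1* (0.630, 0.611 and 1.20 RPKM).

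**Figure D2:**
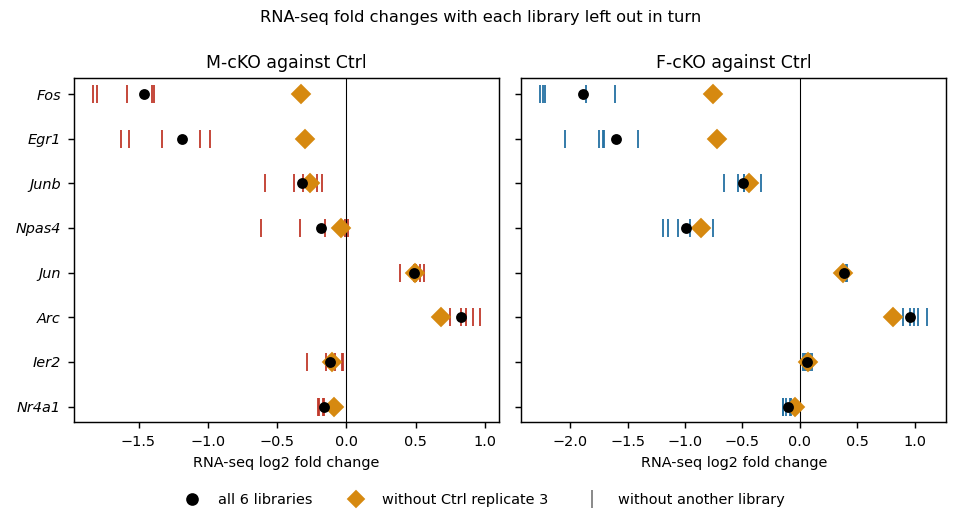
RNA-seq log2 fold change of 8 members in *M*-cKO (left) and *F*-cKO (right) against Ctrl, with all 6 libraries (black circle), without Ctrl replicate 3 (orange diamond) and without each other library (bars). *Fos* moved from -1.46 to -0.32 in *M*-cKO and from -1.89 to -0.75 in *F*-cKO without Ctrl replicate 3, while *Jun* and *Arc* stayed above 0 in every case.

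The remaining 4 tested members overlapped Ctrl in *M*-cKO. *Junb*, an AP-1 subunit that often restrains Jun, was at 2.16, 2.28 and 3.60 FPKM in *M*-cKO and 3.08, 3.34 and 3.58 FPKM in Ctrl, so that a single *M*-cKO library lay at the Ctrl level (log2 fold change -0.32 ± 0.20). *Npas4*, a transcription factor of excited neurons, differed by -0.18 ± 0.31. *Ier2* differed by -0.11 ± 0.13 and *Nr4a1* by -0.16 ± 0.14. None of these 4 passed the threshold (edgeR, Benjamini-Hochberg adjusted *P* between 0.252 and 0.696). Without *M*-cKO replicate 3, *Junb* was called lower (-0.58).

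In the *F*-cKO cortex, which shares its Ctrl libraries with the comparison above, *Jun* and *Arc* RNA were again higher, and *Npas4* was lower. Of the 8 members tested, 2 were called higher, where 11.5% of 16944 genes were, and 1 lower, where 9.57% were (edgeR quasi-likelihood test, Benjamini-Hochberg). The median log2 fold change was -0.30 over the members and -0.01 over all genes tested. *Jun* was at 30.4, 30.4 and 28.8 FPKM, above all Ctrl libraries, as were 21.2% of genes. Its log2 fold change was 0.38 ± 0.06 (adjusted *P* = 0.00365). *Arc* was at 1.64, 1.95 and 1.80 FPKM, 0.96 ± 0.20 on the log2 scale or 1.95-fold higher than Ctrl (adjusted *P* = 0.0114), also without overlap. As in *M*-cKO, both calls held with each library left out. Without *F*-cKO replicate 2, the library with the most *Fto*, they were at 0.37 ± 0.07 and 0.90 ± 0.24 (adjusted *P* = 0.0197 and 0.0465).

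*Npas4* was at 0.267, 0.522 and 0.452 FPKM in *F*-cKO and at 0.858, 0.633 and 0.978 FPKM in Ctrl, or 18 to 35 against 44 to 63 reads. The groups did not overlap, as for 20.1% of genes in this direction. The log2 fold change was -1.0 ± 0.30, or 1.99-fold lower, and its adjusted *P* of 0.0394 lay just inside the threshold (edgeR, Benjamini-Hochberg). The call held without Ctrl replicate 2 and was lost in the other 5 fits that left out a library, with an adjusted *P* from 0.0566 without *F*-cKO replicate 2 to 0.141 without Ctrl replicate 3. It was also lost with all 9 libraries in 1 fit (adjusted *P* = 0.0566).

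*Fos*, *Egr1* and *Junb* were lower in *F*-cKO but not past the threshold. *Fos* was at 0.620, 0.416 and 0.256 FPKM, below all Ctrl libraries, with a log2 fold change of -1.89 ± 0.63 (edgeR, Benjamini-Hochberg adjusted *P* = 0.0580). DESeq2 called it lower (adjusted *P* = 0.00471). *Junb* was at 2.39, 2.91 and 1.85 FPKM, also below all Ctrl libraries (-0.49 ± 0.18, edgeR adjusted *P* = 0.0813). *Egr1* was at 0.726, 0.731 and 0.454 FPKM, which overlapped Ctrl (-1.61 ± 0.55, edgeR adjusted *P* = 0.0655). Leaving out Ctrl replicate 3 took *Fos* to -0.75 ± 0.39 and *Egr1* to -0.72 ± 0.40, while *Junb* moved little (-0.44 ± 0.21), and none of the 3 was called (adjusted *P* = 0.250, 0.289 and 0.219). *Fos* was called lower without Ctrl replicate 1 (-2.22, adjusted *P* = 0.0490), and *Fos* and *Egr1* were without Ctrl replicate 2 (-2.26 and -2.05, adjusted *P* = 0.0340 and 0.0119), with all 9 libraries in 1 fit (adjusted *P* = 0.0302 and 0.0444) and without the filter (3.61e-09 and 5.85e-13). *Ier2* (0.06 ± 0.09) and *Nr4a1* (-0.11 ± 0.13) lay close to Ctrl, with adjusted *P* of 0.647 and 0.602.

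No member passed the threshold between *M*-cKO and *F*-cKO RNA. Of 8 members tested, 0 were called in either direction by edgeR, where the share of all 16802 genes called was 13.1% for higher in *M*-cKO and 14.3% for lower. DESeq2 also called 0 members. A single member of the 8, *Npas4*, had an unadjusted *P* below 0.05, as did 40% of all genes (0.80 ± 0.36 higher in *M*-cKO, edgeR adjusted *P* = 0.125). It was also the 1 member whose groups did not overlap, in the direction in which 22.8% of genes did not, against 20.9% in the other. Its difference ranged from 0.38 without *M*-cKO replicate 2 to 1.01 without *F*-cKO replicate 2. *Npas4* was called when no filter on low counts was applied (0.82, adjusted *P* = 0.0344), and *Ier2* went from -0.19 to -0.35 and was called lower without *M*-cKO replicate 3 (adjusted *P* = 0.0432). The difference was 0.10 for *Jun* (approximate 95% interval -0.07 to 0.27) and -0.15 for *Arc* (-0.47 to 0.18). For *Fos* it was 0.41 (-0.26 to 1.08). The interval was narrow for *Jun* and wide for *Fos*, which had 13 to 35 reads in these libraries.

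**Figure D3:**
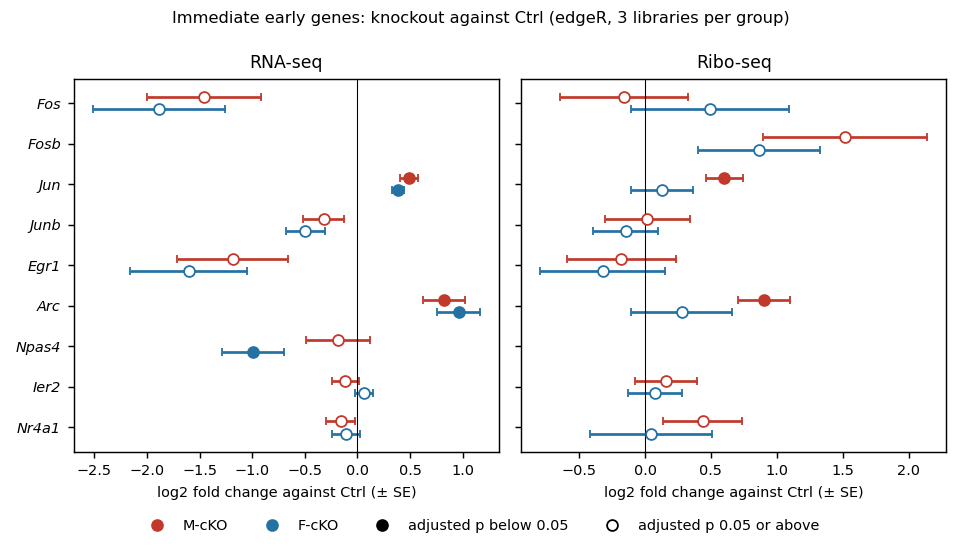
Log2 fold change against Ctrl (± SE) of each member with a test, in RNA-seq (left) and Ribo-seq (right), for *M*-cKO (red) and *F*-cKO (blue). Filled circles have an edgeR adjusted *P* below 0.05: *Jun* and *Arc* in both knockouts and *Npas4* in *F*-cKO for RNA, and *Jun* and *Arc* in *M*-cKO for footprints.

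Ribosome footprints of *Jun* and *Arc* also rose in *M*-cKO. Of the 8 members tested, 2 were called higher, where 7.13% of 14314 genes were, and 0 lower, where 7.50% were (edgeR quasi-likelihood test, Benjamini-Hochberg). DESeq2 called 2 and 0 as well. *Jun* was at 32.7, 37.8 and 29.8 RPKM in *M*-cKO against 25.1, 20.4 and 21.4 RPKM in Ctrl, with a log2 fold change of 0.60 ± 0.14 (1.52-fold, adjusted *P* = 0.0326). *Arc* was at 2.26, 2.26 and 2.41 RPKM against 1.40, 1.32 and 1.02 RPKM, a log2 fold change of 0.90 ± 0.20 (1.87-fold, adjusted *P* = 0.0282). Neither gene's groups overlapped, as for 18.4% of all genes. Both calls were lost with all 9 libraries in 1 fit (adjusted *P* = 0.202 and 0.211) and without Ctrl replicate 1, 2 or 3 or *M*-cKO replicate 1, where the adjusted *P* was 0.0592 to 0.129 for *Jun* and 0.0563 to 0.103 for *Arc*. Over the 6 fits that left out a library, *Jun* lay between 0.49 and 0.70 and *Arc* between 0.80 and 0.99.

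The other footprint levels in *M*-cKO varied with replicate 2, which also held the highest *Jun* level of *M*-cKO but not the highest *Arc* level. This library was the highest of the 3 *M*-cKO libraries for *Fos* (1.02 RPKM against 0.542 and 0.473), *Fosb* (0.739 against 0.146 and 0.305), *Junb* (4.37 against 2.11 and 2.23), *Egr1* (1.05 against 0.460 and 0.626), *Ier2* (15.6 against 9.57 and 10.3) and *Nr4a1* (1.06 against 0.588 and 0.830). *Fosb* had the largest log2 fold change of the members, 1.52 ± 0.62, on 14 to 56 footprints per library, but its groups overlapped and the adjusted *P* was 0.133 (edgeR, Benjamini-Hochberg). Without *M*-cKO replicate 2 it was 0.71. *Nr4a1* was at 0.44 ± 0.30, and at 0.22 without that library (adjusted *P* = 0.341 and 0.662). *Fos* (-0.16 ± 0.49), *Egr1* (-0.18 ± 0.41), *Junb* (0.02 ± 0.33) and *Ier2* (0.16 ± 0.23) lay within 1 SE of Ctrl, with adjusted *P* between 0.668 and 0.978. The approximate 95% interval was -1.11 to 0.79 for *Fos* footprints and -0.99 to 0.63 for *Egr1* footprints, so that neither a fall nor a rise was resolved.

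In *F*-cKO footprints no member was called, nor was any other gene. edgeR called 0 of 14335 genes in either direction (percent called 0), with 318 at an unadjusted *P* below 0.05 and 6 genes called by DESeq2, none of them a member. *Jun* was at 34.1, 16.9 and 21.0 RPKM and *Arc* at 2.10, 1.46 and 0.856 RPKM, each spread across the Ctrl range. The groups overlapped for all 8 members tested, whereas 3.65% of genes lay higher and 4.21% lower without overlap. Their log2 fold changes were 0.13 ± 0.24 and 0.28 ± 0.39 (edgeR, Benjamini-Hochberg adjusted *P* = 0.844 and 0.801). *Fosb* was at 0.232, 0.318 and 0.192 RPKM (0.87 ± 0.46) and *Fos* at 0.884, 0.422 and 1.78 RPKM (0.49 ± 0.60). *F*-cKO replicate 2 was the shallowest Ribo-seq library, with 10 *Fos* and 544 *Jun* footprints, and it had the lowest level of *Jun*, *Fos*, *Junb*, *Egr1* and *Ier2* among the *F*-cKO libraries. The summed level of 8 endothelial markers in *F*-cKO ranged from 6.04 to 92.2 RPKM, highest in this library, against 6.35 to 10.3 RPKM in Ctrl. The part of this library's composition in the member values was not tested.

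Between both knockouts, *M*-cKO footprints of *Jun* were 0.49 ± 0.25 and those of *Arc* 0.65 ± 0.39 above *F*-cKO on the log2 scale, and neither passed the threshold (edgeR, Benjamini-Hochberg adjusted *P* = 0.586 and 0.587). With a library left out, *Jun* ranged from 0.35 (without *F*-cKO replicate 2) to 0.77 and *Arc* from 0.31 (without *F*-cKO replicate 3) to 0.93 (both highest without *F*-cKO replicate 1). *Arc* alone did not overlap between the groups, as for 9.21% of genes in this direction and 6.81% in the other. Here edgeR called 0 of 14262 genes, with 1154 at an unadjusted *P* below 0.05 and 200 called by DESeq2, none of them a member. The call of *Jun* and *Arc* in *M*-cKO and its lack in *F*-cKO is thus not shown to be a difference between the knockouts.

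**Figure D4:**
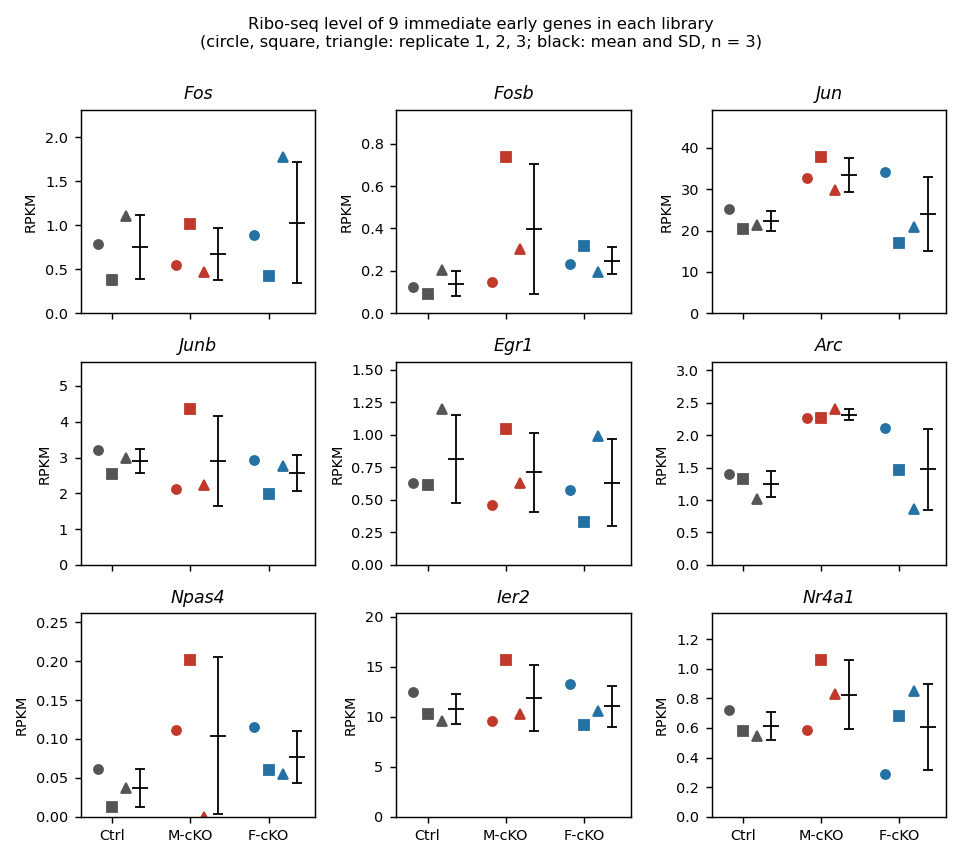
Ribo-seq level (RPKM) of the same 9 genes, laid out as in the plot of RNA-seq levels, with the mean and SD in black (n = 3). *M*-cKO replicate 2 (red square) was the highest *M*-cKO library for every gene shown except *Arc*. *Npas4* stayed at or below 0.201 RPKM in all 9 libraries.

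Footprints of *Npas4* were rare. Its RNA was at 0.267 to 1.12 FPKM, yet its footprints were at 0.0616, 0.0121 and 0.0365 RPKM in Ctrl, 0.111, 0.201 and 0 RPKM in *M*-cKO and 0.115, 0.0606 and 0.0555 RPKM in *F*-cKO. Read counts recovered from these values were 0 to 8 per library. The mean was 0.0367 ± 0.0247 RPKM in Ctrl, 0.104 ± 0.101 RPKM in *M*-cKO and 0.0771 ± 0.0332 RPKM in *F*-cKO (SD, n = 3). A two-sided exact permutation test of 3 against 3 libraries cannot go below *P* = 0.1, so that its values (*P* = 0.4 in *M*-cKO and 0.3 in *F*-cKO) say nothing for or against a difference. The counts of both *Npas4* and *Egr2* are blank in 8 libraries, and neither gene entered the edgeR test. *Egr2* was at 0 to 0.0727 RPKM over the 9 libraries. A predicted gene, *Gm32255*, overlaps the *Egr2* locus in RefSeq, and the strand setting of the counts is not given in the sources used here, so these few fragments cannot be assigned with certainty.

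Translational efficiency (TE), the mean RPKM of Ribo-seq over the mean FPKM of RNA-seq, was lowest for *Npas4* and *Nr4a1*. In Ctrl it was 0.0446 for *Npas4* and 0.258 for *Nr4a1*, both below the lower quartile of 0.274 over 14658 genes (median 0.713, upper quartile 1.46). *Jun* (0.982), *Junb* (0.872) and *Ier2* (0.822) lay above the median and *Arc* (1.37) was the highest of the 9 members with RNA reads. *Fos* was at 0.471 in Ctrl, which includes the high RNA level of replicate 3, at 1.18 in *M*-cKO and at 2.39 in *F*-cKO, and *Egr1* at 0.420, 0.838 and 0.993. The TE of *Nr4a1* was 0.384 in *M*-cKO, above the lower quartile of 0.293 there, and 0.272 in *F*-cKO, below that of 0.377. With 0.1 added to both levels, the Ctrl value was 0.287 for *Nr4a1* and 0.148 for *Npas4*, which rests on very few footprints. The gene lengths behind FPKM and RPKM are not given in the sources used here, so a TE compares genes only as far as both lengths agree.

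The change of TE was tested as the interaction of assay and genotype for the 7 members with enough counts in both assays. In *M*-cKO 0 of 7 were called, where edgeR called 1.65% of 13208 genes higher and 1.41% lower (Benjamini-Hochberg). DESeq2 also called 0. *Nr4a1* had the lowest *P*, at 0.63 ± 0.31 on the log2 scale (unadjusted *P* = 0.0588, adjusted *P* = 0.252, edgeR), and was at 0.40 without Ribo-seq *M*-cKO replicate 2. *Fos* (1.34 ± 0.83) and *Egr1* (1.05 ± 0.79) had larger values, which fell to 0.20 and 0.16 without RNA-seq Ctrl replicate 3. *Jun* (0.16 ± 0.17) and *Arc* (0.12 ± 0.28) were near 0, so that RNA and footprints of these genes rose by similar factors within these errors. In *F*-cKO edgeR called 0 of 13225 genes, with 1090 at an unadjusted *P* below 0.05 and 39 called by DESeq2. The TE change of *Fos* was 2.43 ± 1.00 (edgeR adjusted *P* = 0.585), which falls to 1.27 without RNA-seq Ctrl replicate 3. *Arc* was at -0.68 ± 0.43 and *Jun* at -0.24 ± 0.25. With a library left out, *Arc* ranged from -0.98 (without Ribo-seq *F*-cKO replicate 1) to -0.37 (replicate 3) and *Jun* from -0.52 (replicate 1) to -0.095 (replicate 2). Between *M*-cKO and *F*-cKO edgeR called 0 of 13162 genes (499 at an unadjusted *P* below 0.05, 18 by DESeq2), with *Arc* 0.81 ± 0.40 and *Jun* 0.41 ± 0.29 higher in *M*-cKO (edgeR adjusted *P* = 0.905 for both). These ranged from 0.51 to 1.12 and from 0.27 to 0.70 with a library left out.

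Markers of several cell types moved with these comparisons. Within the *Emx1* lineage, 8 markers of cortical excitatory neurons summed to 953 to 976 FPKM in *M*-cKO (5 called higher, 2 lower) and 855 to 876 FPKM in *F*-cKO (4 higher, 0 lower), against 762 to 784 FPKM in Ctrl. Sums of 10 markers of radial glia and dorsal progenitors were 684 to 744 FPKM in *M*-cKO (3 higher, 1 lower). They were 894 to 908 FPKM in *F*-cKO (6 higher, 1 lower) and 874 to 955 FPKM in Ctrl. In *M*-cKO 8 of these 10 had a positive log2 fold change (median 0.31, lowest -0.97), so the lower sum does not stand for most of them. All 8 markers of ganglionic eminence and interneurons (*Dlx*, *Gad* and related genes, none at 0) were called higher in *M*-cKO RNA, with summed levels of 123 to 168 FPKM against 87.2 to 89.1 FPKM in Ctrl, and 5 of 8 in *M*-cKO footprints (66.0 to 133 against 39.2 to 59.2 RPKM). In *F*-cKO RNA 3 of 8 were higher, with sums of 83.5 to 118 FPKM. Of 8 meningeal and fibroblast markers, 5 were lower in *F*-cKO RNA (19.6 to 25.7 against 32.6 to 42.4 FPKM in Ctrl) and 1 was lower in *M*-cKO (22.3 to 49.3 FPKM). Of 8 endothelial markers, 2 were lower in *F*-cKO RNA (42.5 to 48.0 against 55.5 to 60.4 FPKM in Ctrl) and 0 were called in *M*-cKO (45.9 to 63.8 FPKM). Of 7 red blood cell markers tested, 1 was higher and 0 lower in *M*-cKO RNA, and 1 was higher and 1 lower in *F*-cKO RNA. Sums of the 8 listed were 489 to 727 FPKM in *M*-cKO and 364 to 516 FPKM in *F*-cKO, against 475 to 879 FPKM in Ctrl. Of 7 microglia markers tested, 0 were called in either. The part of all these cells in the *Jun*, *Arc* and *Npas4* values was not tested. Heat shock genes, which respond to handling and to stress, were called higher for 3 and lower for 1 of 10 in *M*-cKO RNA (*Dnajb1* 0.56 ± 0.08, *Hspa1b* 0.97 ± 0.30, *Hspd1* 0.21 ± 0.06, *Hsp90aa1* -0.23 ± 0.07). In *F*-cKO RNA, *Hspd1* was higher (0.21 ± 0.06) and *Hspe1* lower (-0.18 ± 0.05).

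Partners of the members were followed in lists chosen for their role. Among 12 genes of other AP-1 and ATF factors, 11 were tested in RNA. In *M*-cKO 1 was called higher (*Jund*, a constitutive Jun protein, 1.02 ± 0.11) and 1 lower (*Fosl2*, which encodes Fra-2, -0.99 ± 0.09). In *F*-cKO 0 were higher and 4 lower, among them *Fosl2* (-0.40 ± 0.10), *Mafg* (-0.24 ± 0.06) and *Jdp2* (-0.63 ± 0.17). *Fosl2* was the single gene of the list called in *M*-cKO footprints (-0.69 ± 0.17). The list's median log2 fold change in RNA was 0.01 in *M*-cKO and -0.16 in *F*-cKO.

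Both paralogs of *Nr4a1* were called lower, and the difference from *Nr4a1* itself was not tested. *Nr4a2*, a nuclear receptor of deep-layer and subplate neurons as well as an activity-induced gene, was lower in *M*-cKO (-0.90 ± 0.11) and *F*-cKO RNA (-0.83 ± 0.15), and so was *Nr4a3* (-1.10 ± 0.09 and -0.32 ± 0.08). Both were lower in *M*-cKO footprints too (-0.74 ± 0.17 and -1.15 ± 0.21). *Nab2*, a corepressor of EGR proteins, was lower in *F*-cKO RNA (-0.48 ± 0.14) and higher in *M*-cKO footprints (1.00 ± 0.22). In this list of 6 EGR and NR4A family genes, 5 were tested, 0 were higher and 2 lower in *M*-cKO RNA, and 0 were higher and 3 lower in *F*-cKO RNA. *Egr3* did not pass the test in any of these comparisons.

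Other rapidly induced genes changed in both directions. Of 29 tested, 10 were higher and 3 lower in *M*-cKO RNA (median log2 fold change 0.12) and 3 were higher and 5 lower in *F*-cKO RNA (median -0.03). *Sgk1*, a serum and glucocorticoid induced kinase, fell in *M*-cKO (-0.56 ± 0.09) and *F*-cKO (-0.75 ± 0.09), as did *Ccn2*, a secreted matricellular protein (-1.20 ± 0.20 and -1.20 ± 0.23). *Ier5l* (0.83 ± 0.11) and *Errfi1*, an inhibitor of EGF receptor signaling (0.51 ± 0.08), rose in *M*-cKO, and *Btg2*, an antiproliferative gene of neurogenic progenitors (0.79 ± 0.15), and *Gadd45g* (0.65 ± 0.16) rose in *F*-cKO. In *M*-cKO footprints 1 of 28 was higher (*Ier5*, 0.69 ± 0.16) and 2 were lower (*Klf6*, -0.62 ± 0.12, and *Sgk1*, -0.57 ± 0.12).

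Among late effector genes of neuronal activity, 11 of 12 were tested, and 2 were higher and 5 lower in *M*-cKO RNA. *Inhba*, which encodes a subunit of activin, fell by 1.87 on the log2 scale (SE 0.15), *Plk2* was at -0.67 ± 0.07, *Homer1* at -0.40 ± 0.06 and *Scg2*, a granin of secretory vesicles, at 0.65 ± 0.16. In *F*-cKO RNA 0 were higher and 2 lower (*Vgf*, a neuropeptide precursor, -0.99 ± 0.19, and *Plk2*, -0.32 ± 0.09). *Rheb*, an activator of mTORC1, had lower footprints in *M*-cKO (-1.07 ± 0.13), together with *Plk2* (-0.74 ± 0.10) and *Inhba* (-1.40 ± 0.30). Of 28 upstream genes of the SRF, CREB and MEF2 pathways, 6 were higher and 4 lower in *M*-cKO RNA and 3 were higher and 4 lower in *F*-cKO RNA. *Mef2c*, a transcription factor of maturing cortical neurons, was lower in both (-1.11 ± 0.12 and -0.68 ± 0.15) and in *M*-cKO footprints (-1.05 ± 0.21). *Creb1* (0.38 ± 0.07) and its coactivator *Ep300* (0.41 ± 0.07) were higher in *F*-cKO RNA, and *Cacna1c*, an L-type calcium channel subunit, was lower in *M*-cKO RNA (-0.44 ± 0.07). All calls on these lists are edgeR quasi-likelihood calls at a Benjamini-Hochberg adjusted *P* below 0.05, to be read against the shares of all genes given above.

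The members did not vary as a single block. Over the 9 RNA-seq libraries, which include the differences between genotypes, the median Pearson correlation of log2 CPM was 0.06 over the 36 pairs of 9 members. *Fos* went with *Egr1* (*r* = 0.91, Spearman's rho 0.73), *Fosb* with *Nr4a1* (*r* = 0.91, rho 0.88) and *Jun* with *Arc* (*r* = 0.83, rho 0.78), while *Fos* and *Arc* ran against each other (*r* = -0.84, rho -0.80). Without Ctrl replicate 3 these values were 0.69, 0.85, 0.81 and -0.62, and that of *Fos* and *Fosb* went from 0.72 to -0.46. Within genotypes, as deviations from each group's mean, *Jun* and *Arc* had *r* = 0.18 and *Fos* and *Egr1* 0.86. In Ribo-seq the median over 28 pairs was 0.31, with *r* = 0.85 for *Junb* and *Ier2*, 0.79 for *Jun* and *Arc* and 0.74 for *Fos* and *Egr1*. These values describe 9 libraries that share their groups and carry no test.

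**Figure D5:**
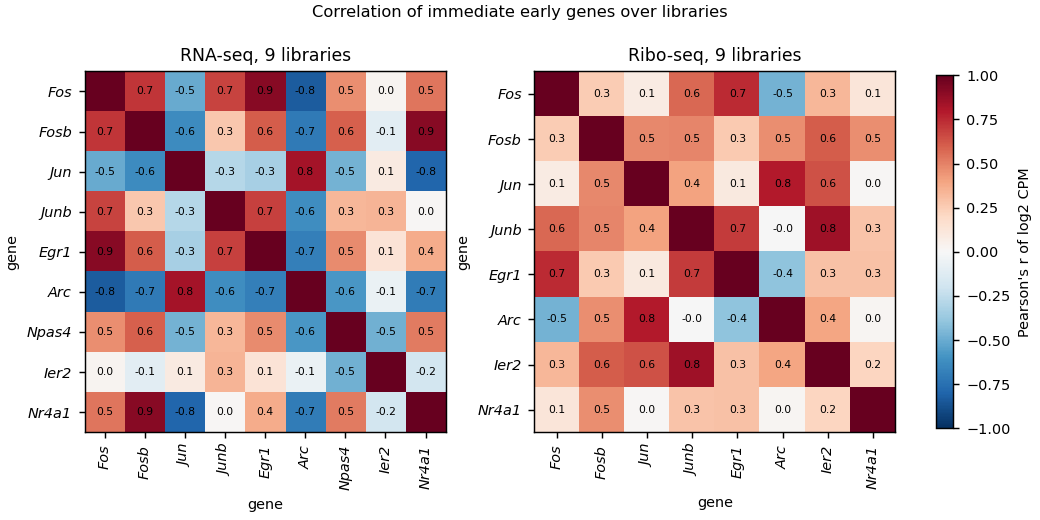
Pearson correlation of log2 CPM between members over the 9 RNA-seq libraries (left) and the 9 Ribo-seq libraries (right), from blue (-1) to red (1). In RNA-seq *Fos* and *Egr1* (0.91) and *Jun* and *Arc* (0.83) form separate pairs with negative values between *Fos* and *Arc* (-0.84).

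As a measure of the whole set, the mean z-score of the 8 tested members was highest in RNA-seq Ctrl replicate 3 (0.73) and *M*-cKO replicate 3 (0.37) and lowest in *M*-cKO replicate 1 (-0.33). Among 13507 other genes with a mean of at least 1 FPKM, the 5 with the most similar pattern over the 9 libraries were a locus without a gene symbol (*r* = 0.92), *Fam57a* (0.91), *Rpn1* (0.88), *Hprt* (0.88) and *Zfp931* (0.87). Without Ctrl replicate 3 their correlations were 0.87, 0.73, 0.78, 0.75 and 0.82.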

How the data were processed

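RNA-seq and Ribo-seq were compared over 18 libraries. The authors deposited raw counts per gene with FPKM for RNA-seq and RPKM for Ribo-seq. The submitters' processing notes name HISAT2 2.0.5, TopHat2, HTSeq, DESeq2 1.14.1 and mm10. In the deposited Ribo-seq counts, 40490 of 54838 genes, *Npas4* and *Egr2* among them, are blank in 8 libraries. They were left out of the tests, and 26417 were refilled from RPKM as an alternative. Counts were fitted with edgeR 4.0.16 (filterByExpr, minimum count 10, TMM, quasi-likelihood test, Benjamini-Hochberg over all genes) on the libraries of each comparison. TE used the interaction of assay and genotype. Approximate intervals at 95% came from the SE. DESeq2 1.42.0, other filters and left-out libraries were alternatives. For RNA-seq only, limma 3.58.1 on log2(FPKM + 0.1) and on log2(FPKM + 1) was run too. Scripts were tested on simulated data. The members and gene lists were chosen with earlier results of these data known. Named genes were the members, the 5 genes most like their mean, and examples of the listed genes that passed the test. The values of 1 listed gene are not reported here.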

Additional observations from a re-analysis of the deposited data

How the results depend on the processing

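*Jun* and *Arc* RNA were called higher in both knockouts under every alternative run. Over all alternatives, the single members tallied kept their direction and side of the threshold in 636 of 698 cases. They lost the call in 20, gained it in 18 and changed sign in 23. The TE of *Npas4* in Ctrl moved from 0.0446 to 0.148 with 0.1 added. All tested members were tallied in RNA and footprints against Ctrl. For TE against Ctrl, *Junb* and *Ier2* were left out of the tally. Between *M*-cKO and *F*-cKO, *Junb* and *Nr4a1* were left out for RNA, and all but *Jun* and *Arc* for footprints and TE. Members called lower in *M*-cKO RNA numbered 3 without the filter and 2 with the replicate block, and 0 to 2 with a library left out. Those called lower in *F*-cKO RNA numbered 2 with DESeq2, 4 without the filter, 0 with the replicate block, 2 with all 9 libraries, 0 with limma on log2(FPKM + 0.1), and 0 to 3 with a library left out. For *M*-cKO against *F*-cKO RNA, 1 was called higher without the filter and 0 to 1 lower with a library left out. Members called higher in *M*-cKO footprints numbered 0 with the replicate block, 0 with all 9 libraries, and 0 to 2 with a library left out. The cause was not tested.

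The replicate numbers did not pair the libraries (same-number correlations from -0.28 to 0.16). Under the replicate block, *Fos* and *Egr1* RNA were called lower in *M*-cKO (adjusted *P* = 0.0463 and 0.0480), the calls of *Npas4* RNA in *F*-cKO (0.0784) and of *Jun* and *Arc* footprints in *M*-cKO (0.0549 and 0.0598) were lost, *Junb* footprints in *M*-cKO were at -0.0696 and *Nr4a1* footprints in *F*-cKO at -0.067. With counts refilled from RPKM, *Junb* in *M*-cKO was at -0.013.

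With a library left out, signs changed within these ranges of log2 fold change among the members tallied above: *Npas4* RNA in *M*-cKO, -0.61 to 0.014. In *M*-cKO footprints, *Fos* -0.57 to 0.24, *Junb* -0.42 to 0.23, *Egr1* -0.57 to 0.23 and *Ier2* -0.11 to 0.32. In *F*-cKO footprints, *Fos* -0.12 to 0.86, *Jun* -0.15 to 0.27, *Egr1* -0.75 to 0.068, *Arc* -0.0096 to 0.61, *Ier2* -0.031 to 0.22 and *Nr4a1* -0.20 to 0.40. For TE, *Arc* in *M*-cKO -0.016 to 0.27 and *Nr4a1* in *F*-cKO -0.18 to 0.53.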
